A study of Bos taurus with 15 samples.

Results

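Transcripts of 10 genes that serve protein folding in the endoplasmic reticulum (ER) or its stress response were followed in engineered bovine meniscus tissue. The genes were chosen by name, with earlier results of these data known. They are the chaperones HSPA5, HSP90B1, CALR and CANX, the protein disulfide isomerases PDIA3, PDIA4 and PDIA6, and the transcription factors XBP1, ATF4 and DDIT3. Each name matched 1 of the 38001 gene rows of the deposited table, and all 10 genes were among the 11834 with enough counts to be tested. The samples were fibrochondrocytes of the meniscus, which build the cartilage-like tissue of the knee, cultured in collagen for 28 days, of which 3 were in growth medium with 10% fetal bovine serum and 25 in chondrogenic medium with ascorbic acid (50 µg/ml), dexamethasone and TGF-β3 (10 ng/ml). There were 5 groups of 3 libraries: anchored middle and anchored post, from tissue cast in a 3D-printed mold with post anchors, unanchored middle and unanchored post, from tissue cast in a mold without them, and no mold, which was cells in collagen left unshaped. All groups had the same cell type, media and culture time. How many animals gave the cells, and whether the 3 libraries of a group are separate tissues or repeats of 1, is not in the labels. The p-values therefore describe how much these libraries vary, a spread that could be technical.

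Secreted and membrane proteins, among them the collagens and proteoglycans that these cells make, fold in the ER. There HSPA5 (BiP) and HSP90B1 (GRP94) hold unfolded chains, CALR (calreticulin) and CANX (calnexin) bind freshly glycosylated ones, and the disulfide isomerases form and exchange disulfide bonds. When unfolded protein builds up, the sensors ATF6, IRE1 (ERN1) and PERK (EIF2AK3) start the unfolded protein response: ATF6 raises chaperone transcription, IRE1 splices XBP1 messenger RNA into its active form, and PERK slows translation while ATF4 protein is made, which in turn can induce DDIT3 (CHOP). Splicing of XBP1 and translation of ATF4 are not visible in a count of transcripts, so the values below are message levels only.

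Libraries held 2060781 to 7415701 counts. No-mold libraries 1 and 3 and anchored middle library 2 were the shallowest, at up to 2986944 counts. The least abundant member in any library was DDIT3 with 111 counts, so none of the 10 was limited to a few reads. Reads were primed at the poly-A tail, values were not divided by gene length, and levels are therefore compared between samples and not between genes. Some values are not whole, so the authors' counting divided some reads among gene rows. The share of a member's counts in values that are not whole was 88.2% for XBP1, 60.7% for HSP90B1 and 56.2% for ATF4. It was 44.8% for CALR, 43.0% for PDIA6, 40.1% for CANX, 22.1% for PDIA3, 11.7% for HSPA5 and 0% for PDIA4 and DDIT3. A value enters with all its counts even where few reads were divided, so these are not shares of divided reads. Reads of a near-identical copy could therefore sit in the values of the first 8. All 10 matrix and fibrochondrocyte markers were tested, with COL1A1 between 6085 and 15686 CPM (counts per 1e+06 library counts). The 6 endothelial markers summed to at most 2.01 CPM in any library and the 6 leukocyte and macrophage markers to at most 8.56 CPM. The 6 muscle markers summed to 6.45 to 20.2 CPM, mostly DES, with MYOD1 at 0 counts. Among Schwann and neural markers, S100B, a gene that cartilage cells also express, was at 333.0 to 436.6 CPM and NCAM1 at 6.18 to 17.7 CPM, while SOX10 had 1 count over all libraries.

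Levels are given in CPM after scaling by TMM, a factor per library that removes shifts in composition. Among the 10 genes, the highest library exceeded the lowest by 1.23-fold for XBP1 and by 2.68-fold for HSP90B1, the ends of the range. Anchored middle library 2 stood apart: it was the highest of all 15 libraries for HSP90B1, CALR and PDIA6, and the lowest for ATF4 and XBP1. Values with and without it are given where a result rests on it. Because the samples are bulk tissue, a lower level in all cells and fewer cells that express a gene cannot be told apart.

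Set against tissue without a mold, molded tissue had higher levels of the 4 chaperones HSPA5, HSP90B1, CALR and CANX, by 1.19-fold to 1.51-fold, and of DDIT3, by 1.34-fold. PDIA3, PDIA4, PDIA6, XBP1 and ATF4 did not pass the test (edgeR, adjusted p over all genes of 0.05). Thus 5 of the 10 genes were higher, averaged over the 4 molded groups, and 0 lower, where 16% of the 11834 genes tested were called, 8.04% as higher and 7.91% as lower. The median log2 fold change was 0.23 over the 10 genes and 0.00 over all genes. Because the 10 genes were chosen with earlier results of these data known, these shares do not test the set. With scaling by library totals alone, 66.3% of all genes called were higher, against 50.4% with TMM, and PDIA6 joined the members called (adjusted p = 0.0273).

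**Figure D1:**
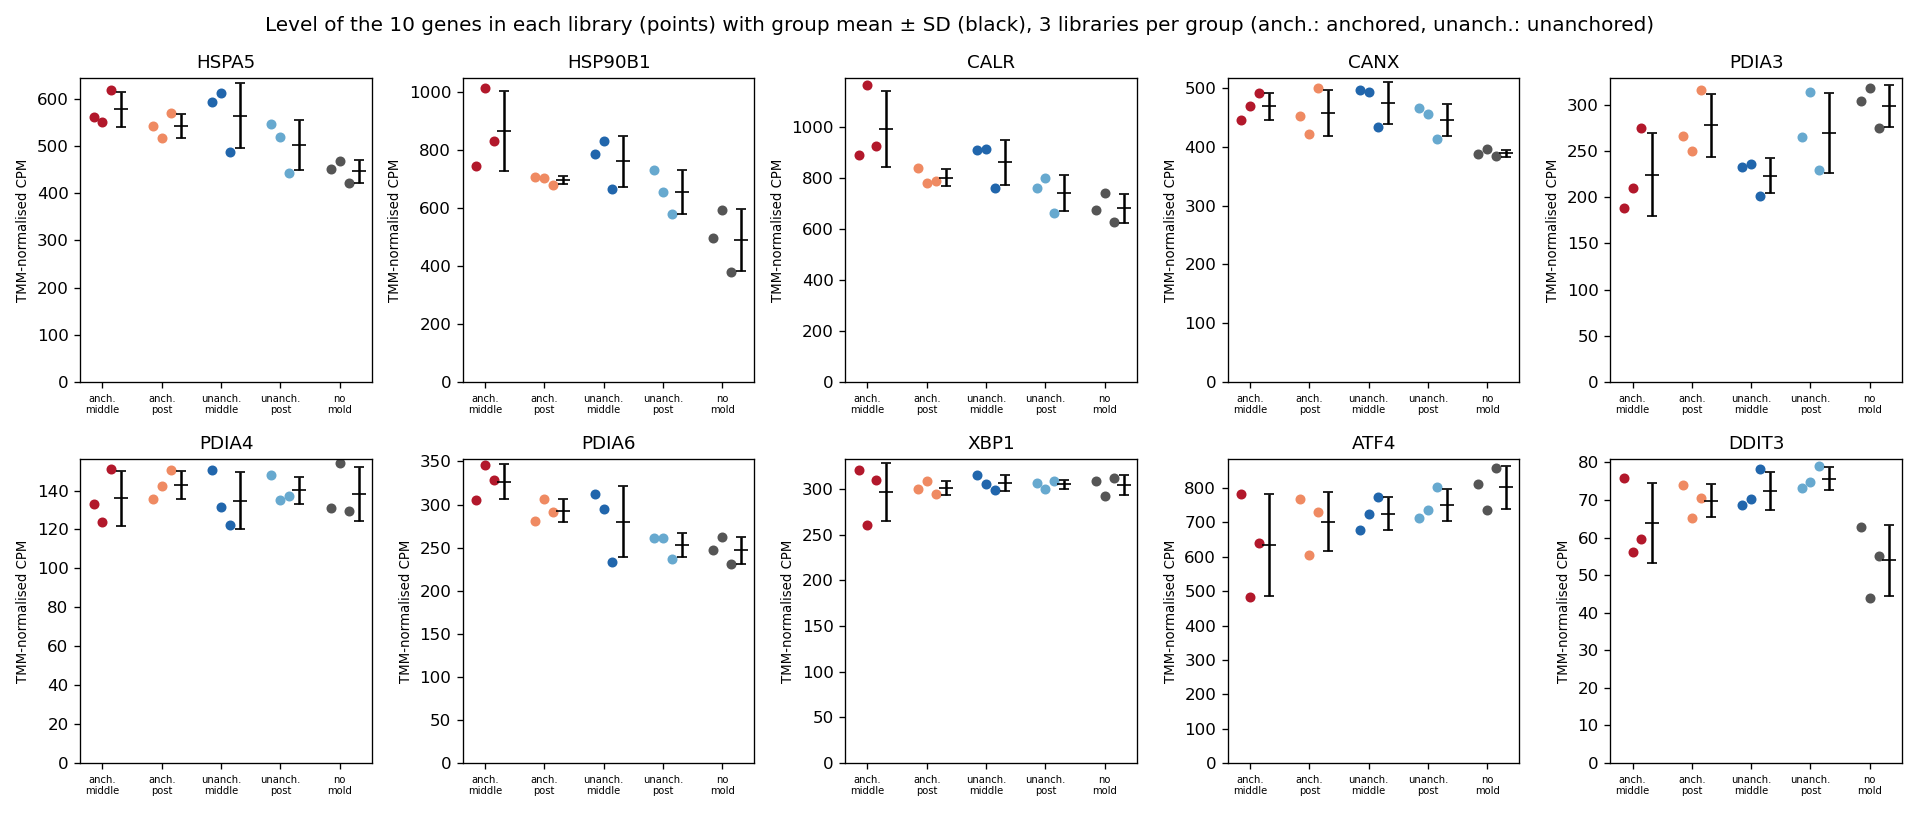
Level of each of the 10 genes in TMM-scaled CPM (vertical axes, from 0) by group (horizontal axes). Coloured points are libraries 1, 2 and 3 from left to right, and the black mark is the group mean ± SD. The CANX points of the 12 molded libraries all lie at or above 413.9 CPM and the no-mold points at or below 395.9 CPM, while the XBP1 and PDIA4 points of all groups share one range.

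HSP90B1 (ENSBTAG00000003362), the ER member of the HSP90 family, varied most. It had 743.6, 1014 and 831.3 CPM in anchored middle tissue, 706.6, 701.8 and 678.5 in anchored post, 786.0, 831.1 and 663.1 in unanchored middle and 730.7, 653.1 and 578.3 in unanchored post, against 495.2, 591.0 and 377.6 without a mold. All molded libraries but 1, unanchored post library 3, lay above the highest no-mold library. The mean of the 4 molded groups was 1.51-fold that of no mold (log2 fold change 0.59, SE 0.12, edgeR adjusted p = 0.00108). Without anchored middle library 2 the log2 fold change was 0.56 (adjusted p = 0.000344).

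HSPA5 (ENSBTAG00000007662), the ER HSP70 that also keeps the stress sensors inactive, was 562.5, 551.4 and 619.2 CPM in anchored middle tissue, 542.4, 517.3 and 568.9 in anchored post, 594.1, 612.9 and 486.8 in unanchored middle and 545.9, 518.7 and 443.8 in unanchored post, against 450.6, 468.5 and 420.8 without a mold. Again unanchored post library 3 was the 1 molded library inside the no-mold range. The log2 fold change, molded over no mold, was 0.29 (SE 0.09, adjusted p = 0.0234), and without anchored middle library 2 it was 0.30 (adjusted p = 0.0117).

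CALR (ENSBTAG00000015114), the soluble lectin chaperone, had 892.4, 1165 and 926.3 CPM in anchored middle tissue, 839.7, 781.8 and 787.6 in anchored post, 912.8, 916.2 and 760.1 in unanchored middle and 761.4, 801.3 and 665.5 in unanchored post, against 674.4, 742.8 and 629.2 without a mold. Unanchored post library 3 alone overlapped the no-mold libraries. CALR was higher in the molded groups by 0.31 on the log2 scale (SE 0.09, adjusted p = 0.0264), and by 0.28 without anchored middle library 2 (adjusted p = 0.0161). CANX (ENSBTAG00000048107), its membrane-bound counterpart, had 445.2, 469.9 and 491.5 CPM in anchored middle tissue, 451.9, 422.5 and 499.7 in anchored post, 496.6, 492.9 and 433.1 in unanchored middle and 465.5, 456.1 and 413.9 in unanchored post, against 387.3, 395.9 and 383.6 without a mold. It was the only 1 of the 10 genes whose molded and no-mold libraries did not overlap, although its difference was small (log2 fold change 0.25, SE 0.08, adjusted p = 0.0326).

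None of the 3 disulfide isomerases passed, and the signs of their differences were mixed. PDIA6 (ENSBTAG00000001928) had 305.3, 345.6 and 328.3 CPM in anchored middle tissue, 280.7, 306.9 and 291.3 in anchored post, 311.6, 295.0 and 233.7 in unanchored middle and 261.6, 261.4 and 236.9 in unanchored post, against 247.1, 262.8 and 231.2 without a mold. Both anchored groups lay above the no-mold libraries, and the unanchored groups overlapped them. Its difference between molded and no mold missed the threshold (log2 fold change 0.21, SE 0.09, adjusted p = 0.0916). PDIA3 (ENSBTAG00000017196), which works with CALR and CANX on glycoproteins, had 188.4, 209.4 and 274.8 CPM in anchored middle tissue, 266.5, 250.4 and 316.2 in anchored post, 232.8, 236.0 and 201.3 in unanchored middle and 265.0, 314.3 and 229.0 in unanchored post, against 303.8, 318.6 and 274.4 without a mold. Most molded libraries lay below the no-mold range and the rest inside it, and the difference over all 4 groups did not pass (log2 fold change -0.27, SE 0.10, adjusted p = 0.0767). PDIA4 (ENSBTAG00000017143), a larger member of the family, lay between 122.1 and 151.1 CPM in the molded libraries and at 131.1, 154.3 and 129.5 CPM without a mold, so that the groups overlapped throughout. Its log2 fold change was -0.01 with a 95% interval of -0.18 to 0.17 (adjusted p = 0.972).

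Of the transcription factors, DDIT3 (ENSBTAG00000031544), which encodes CHOP, had 75.9, 56.0 and 59.7 CPM in anchored middle tissue, 73.9, 65.2 and 70.4 in anchored post, 68.7, 70.2 and 78.1 in unanchored middle and 73.2, 74.9 and 79.0 in unanchored post, against 62.8, 43.9 and 55.1 without a mold. Anchored middle libraries 2 and 3 lay within the no-mold range and the other 10 molded libraries above it. DDIT3 was 1.34-fold higher in the molded groups (log2 fold change 0.42, SE 0.11, adjusted p = 0.0101), and without anchored middle library 2 the log2 fold change was 0.44 (adjusted p = 0.00354). ATF4 (ENSBTAG00000017462), which encodes a factor upstream of DDIT3, had 781.5, 483.2 and 639.2 CPM in anchored middle tissue, 768.9, 606.1 and 730.8 in anchored post, 678.0, 723.9 and 773.5 in unanchored middle and 711.8, 735.8 and 802.1 in unanchored post, against 810.6, 735.9 and 859.4 without a mold. The groups overlapped, and the difference was not called (log2 fold change -0.19, SE 0.10, adjusted p = 0.224), nor was it without anchored middle library 2 (-0.15, adjusted p = 0.227). XBP1 (ENSBTAG00000005970) ran from 260.8 to 320.5 CPM in the molded libraries, against 292.3 to 312.6 CPM without a mold, the narrowest spread of the 10 genes. Its log2 fold change was -0.01 with a 95% interval of -0.16 to 0.14 (adjusted p = 0.970).

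The no-mold side of these tests rests on 3 libraries, of which libraries 1 and 3 are shallow. Leaving out no-mold library 1 ended the calls of HSPA5 (adjusted p = 0.0731), CALR (0.0964) and CANX (0.0975). Without no-mold library 3 they were 0.148 for HSPA5, 0.175 for CALR and 0.130 for CANX. Without no-mold library 2, which had the lowest DDIT3, the log2 fold change of DDIT3 was 0.26 and its call was lost (adjusted p = 0.178), as was that of CANX (0.0754). CANX also fell short without unanchored post library 1 (0.0516) or unanchored middle library 2 (0.0503). PDIA3 passed, as lower, without unanchored post library 2 (0.0402) or anchored middle library 3 (0.0259), and PDIA6 passed, as higher, without unanchored middle library 3 (0.0325). With the 3 shallowest libraries left out, no-mold library 2 remains alone and is assumed to vary like the others. The log2 fold change was then 0.70 for DDIT3, 0.29 for HSP90B1, 0.23 for HSPA5, 0.22 for CANX and 0.155 for CALR. Library 2 was the lowest no-mold library for DDIT3 and the highest for HSPA5, HSP90B1, CALR and CANX. These values therefore depend on which library remained.

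The no-mold libraries differed from the molded ones in other respects as well. Mitochondrial messenger RNA made up 1.52% to 2.36% of counts in molded libraries, against 1.40% to 1.74% without a mold. The 3 measured adipocyte markers, mostly FABP4, summed to 318.7 to 574.5 CPM in molded libraries, against 274.7 to 305.9 CPM without a mold, and ADIPOQ was not matched. AFP, the fetal liver gene, ran from 23.7 to 82.9 CPM in molded libraries, with anchored middle library 2 at 76.7, against 116.0, 42.3 and 115.6 CPM in no-mold libraries 1, 2 and 3. The part of depth, of mitochondrial share, of AFP and of these markers in the differences above was not tested.

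The 4 molded groups share the no-mold libraries, so their values are set side by side. HSP90B1 was called in 3 of them, at log2 fold changes of 0.82 in anchored middle (adjusted p = 0.000442), 0.63 in unanchored middle (0.00372) and 0.51 in anchored post (0.0315), and was 0.42 in unanchored post (0.0603). HSPA5 was called in both middle groups, at 0.37 in anchored middle (0.0227) and 0.34 in unanchored middle (0.0344). CALR was called in anchored middle at 0.54 (0.00317) and stood at 0.34 in unanchored middle (0.0510). PDIA6 was called in anchored middle, at 0.40 (0.0139), and CANX in unanchored middle, at 0.29 (0.0472). PDIA3 was lower than without a mold in both middle groups, with a log2 fold change of -0.42 in each (0.0410 in anchored middle and 0.0339 in unanchored middle), and was -0.11 in anchored post and -0.15 in unanchored post, neither called. DDIT3 was called in both unanchored groups, at 0.46 in the middle (0.0196) and 0.52 in the post region (0.0122), and was 0.41 in anchored post (0.0660) and 0.29 in anchored middle (0.145). In anchored middle, 4 members were thus higher and 1 lower, where 13.3% of all genes were called (7.11% higher, 6.2% lower). In anchored post 1 was higher, with 5.56% of genes called (2.92% higher, 2.64% lower). In unanchored middle 4 were higher and 1 lower, with 14.8% called (7.56% higher, 7.2% lower), and in unanchored post 1 was higher, with 9.02% called (4.93% higher, 4.09% lower). Of the genes called in these 4 comparisons, 66.1% to 69.8% were higher with scaling by library totals, against 51.2% to 54.7% with TMM.

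**Figure D2:**
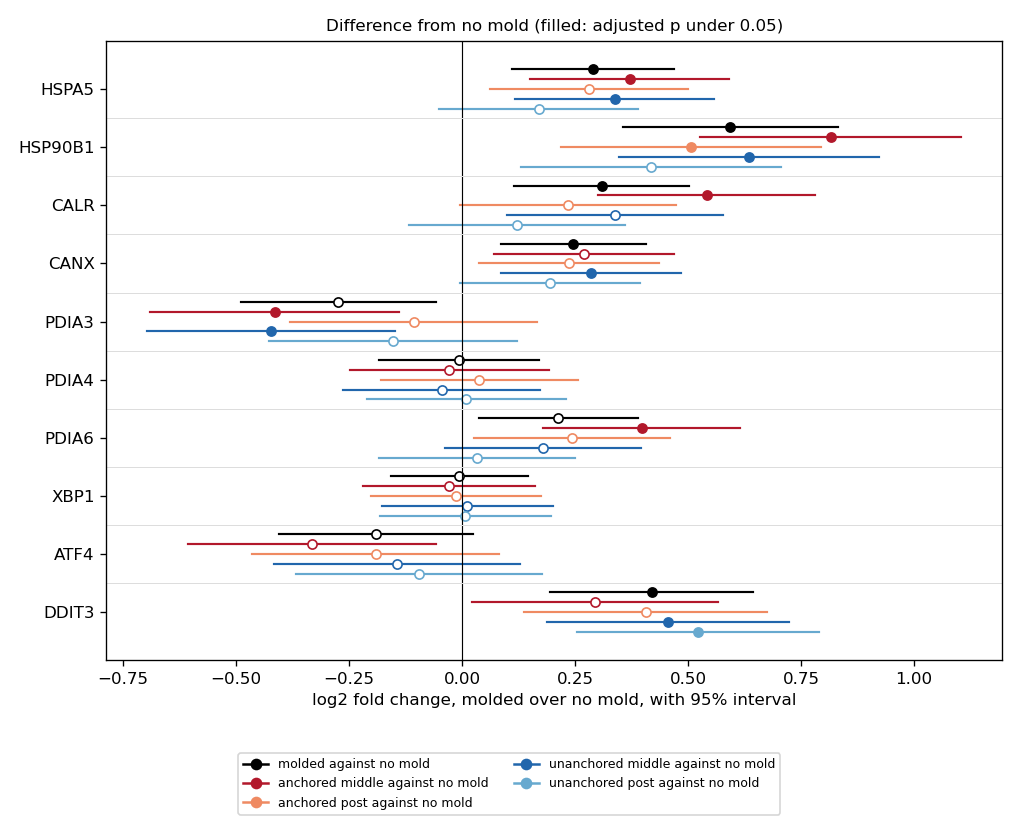
Log2 fold change of each gene, molded over no mold (horizontal axis), with its 95% interval, for the mean of the 4 molded groups (black) and for each group (colours). Filled points passed an adjusted p of 0.05. HSP90B1 lies farthest to the right, from 0.42 in unanchored post to 0.82 in anchored middle, and PDIA3 lies to the left of 0 in every group.

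Single libraries decided several of these calls. Without anchored middle library 2, HSP90B1 and CALR in anchored middle were 0.69 (adjusted p = 0.00109) and 0.42 (0.0109), and PDIA3 there no longer passed (0.0787). PDIA3 in anchored middle also failed without no-mold library 1 (0.101), 2 (0.137) or 3 (0.0604), without anchored middle library 1 (0.202), and, by a little, without unanchored post library 1 (0.0530), unanchored middle library 1 (0.0501) or 2 (0.0512), or anchored post library 1 (0.0521). In unanchored middle PDIA3 failed without no-mold library 1 (0.0890), 2 (0.120) or 3 (0.0521) and without unanchored middle library 1 (0.0660), 2 (0.0605) or 3 (0.124). HSPA5 in anchored middle failed without no-mold library 1 (0.0519) or 3 (0.106) or anchored middle library 3 (0.0982), and in unanchored middle without no-mold library 1 (0.0768) or 3 (0.147) or unanchored middle library 1 (0.118) or 2 (0.150). PDIA6 in anchored middle failed without no-mold library 3 (0.0771). HSP90B1 in anchored post failed without no-mold library 1 (0.0945) or 3 (0.204) or without anchored post library 1 (0.0856), 2 (0.0743) or 3 (0.0548). CANX in unanchored middle lost its call in 13 of 23 alternatives, among them each no-mold library (library 1, 0.103; library 2, 0.0801; library 3, 0.137), unanchored middle libraries 1 (0.148) and 2 (0.145), each unanchored post library (0.0569, 0.0576 and 0.0509 for libraries 1, 2 and 3), anchored post library 1 (0.0551) and anchored middle library 3 (0.0531). DDIT3 in unanchored post failed without no-mold library 2 (0.112) or unanchored post library 3 (0.0506), and in unanchored middle without no-mold library 2 (0.173) or 3 (0.0550) or unanchored middle library 3 (0.0652).

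Other results passed under another setting. CANX in anchored middle passed by DESeq2 (0.0345) and with library totals (0.0413). Without anchored middle library 2, CALR in unanchored middle (0.0177), HSP90B1 in unanchored post (0.0272) and DDIT3 in anchored post (0.0377) were called as higher. Without anchored middle library 1 the same 3 passed (0.0432, 0.0464 and 0.0388), and ATF4 in anchored middle was called as lower, at a log2 fold change of -0.51 (0.0148), against -0.33 (0.0983) with it. CALR in unanchored middle also passed without no-mold library 2 (0.0445), unanchored middle library 3 (0.0273) or anchored post library 2 (0.0443), HSP90B1 in unanchored post without no-mold library 2 (0.0172) and DDIT3 in anchored post without no-mold library 1 (0.0451).

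Between regions, averaged over both mold types, CALR was the 1 member called: it averaged 803.0 ± 31.9 CPM in anchored post against 994.6 ± 149 in anchored middle, and 742.7 ± 69.8 in unanchored post against 863.0 ± 89.2 in unanchored middle. Its log2 fold change, post over middle, was -0.26 (SE 0.08, edgeR adjusted p = 0.0458). Over all genes 8.51% were called in this comparison, 3.32% as higher and 5.19% as lower in the post regions. HSP90B1 had the same log2 fold change of -0.26 without passing (SE 0.10, adjusted p = 0.0947). PDIA3 was the member with the largest difference in the other direction, at 277.7 ± 34.3 CPM in anchored post against 224.2 ± 45.1 in anchored middle, and 269.4 ± 42.8 in unanchored post against 223.4 ± 19.2 in unanchored middle, and it missed the threshold (log2 fold change 0.29, SE 0.09, adjusted p = 0.0539). The values of PDIA3 in post and middle libraries overlapped, as did those of CALR. The other 7 members lay between -0.15 (PDIA6) and 0.10 (ATF4).

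The call of CALR between regions was lost in 14 of 23 alternatives, among them the omission of anchored middle library 2 (log2 fold change -0.20, adjusted p = 0.0868), while the sign held in all of them. Single libraries that ended it were also no-mold 1 (0.0584) and 3 (0.0528), unanchored post 1 (0.0708) and 3 (0.133), unanchored middle 1 (0.114) and 2 (0.130), anchored post 1 (0.0590), 2 (0.0726) and 3 (0.0855) and anchored middle 3 (0.0557). PDIA3 passed without unanchored post library 3 (0.0366), anchored post library 2 (0.0462) or anchored middle library 3 (0.0136), and also by DESeq2 (0.0383). HSP90B1 passed without anchored middle library 1 (0.0495). Within each mold type 0 members passed by edgeR or DESeq2, and at an unadjusted p under 0.05 there were 3 in anchored and 0 in unanchored tissue: CALR was at -0.31 in anchored tissue (adjusted p = 0.203) and -0.22 in unanchored tissue (0.411), HSP90B1 at -0.31 (0.304) and -0.22 (0.499), and PDIA3 at 0.31 (0.279) and 0.27 (0.360). Without anchored middle library 2, anchored tissue gave -0.18 for CALR (edgeR adjusted p = 0.48), -0.18 for HSP90B1 (0.593) and 0.26 for PDIA3 (0.402). Unanchored tissue then stood at -0.22 for CALR, -0.22 for HSP90B1 and 0.27 for PDIA3. With all libraries, 1.92% of all genes were called between regions in anchored tissue (0.254% higher, 1.66% lower). In unanchored tissue 0.448% were called (0.0676% higher, 0.38% lower).

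Anchoring, the second factor of the molds, gave 0 calls among the 10 genes and 0 among all 11834, by edgeR as by DESeq2, in the middle, in the post region and averaged over both, that is 0% of all genes. Over all genes 366 had an unadjusted p under 0.05 in the middle, 454 in the post region and 648 in the average. At an unadjusted p under 0.05, 1 of the 10 genes passed in the average: PDIA6, with a log2 fold change of 0.21, anchored over unanchored (SE 0.07, edgeR adjusted p = 0.835), and values of 280.7 to 345.6 CPM in anchored libraries against 233.7 to 311.6 CPM in unanchored ones, which overlapped. PDIA6 was also the 1 gene with an unadjusted p under 0.05 in the middle region, and 0 were in the post region. The other 9 lay between -0.14 (ATF4 and DDIT3) and 0.16 (CALR), with a 95% interval of -0.33 to 0.05 for ATF4. For the interaction of anchoring and region, 0 members and 0 genes passed by edgeR or DESeq2, 0 members and 223 genes had an unadjusted p under 0.05, and the members' values ran from -0.09 to 0.09.

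**Figure D3:**
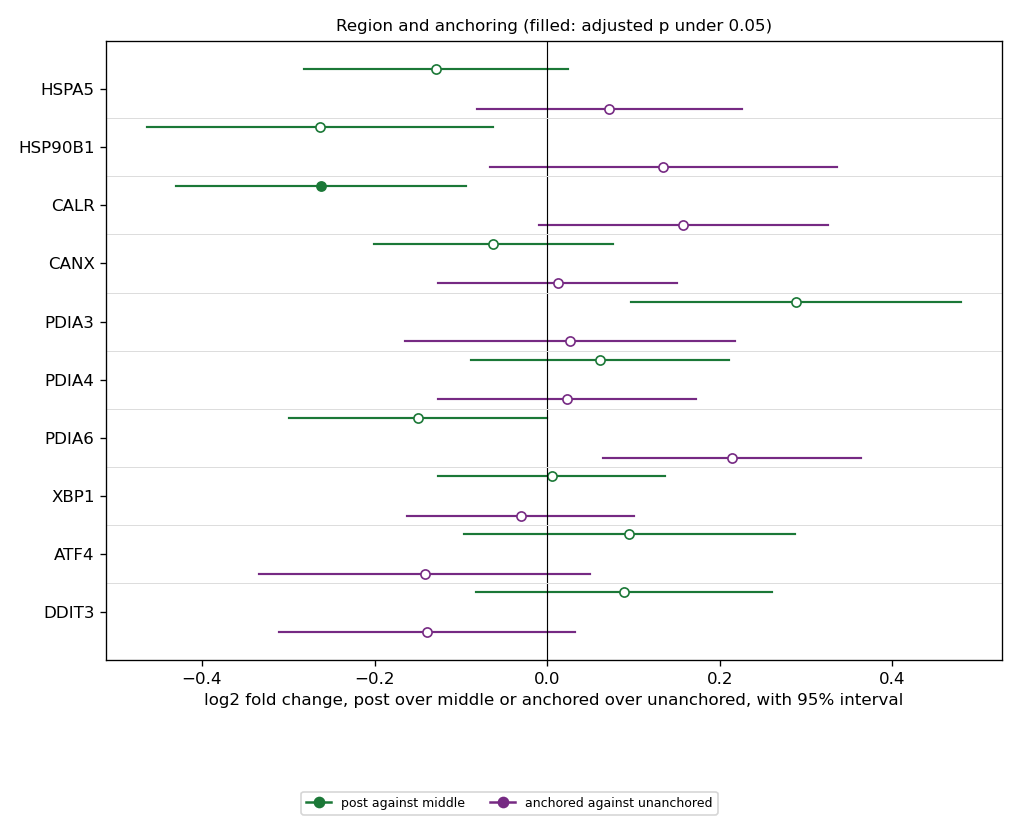
Log2 fold change of each gene between regions (green, post over middle) and between mold types (purple, anchored over unanchored), with 95% intervals. The filled point, CALR at -0.26, is the one that passed an adjusted p of 0.05, and the anchoring interval of PDIA6 is the one of that colour that does not reach 0.

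Among themselves the 7 chaperones and isomerases largely varied together from library to library, and the transcription factors did not follow them. The correlations below are over 15 libraries that share depth and group structure, and are given as descriptions. Pearson's r of log2 CPM had a median of 0.51 over the 21 pairs of chaperones, from -0.42 to 0.93, and 15 of them were positive. HSPA5 and CANX were at r = 0.93, HSP90B1 and CALR at 0.92, and CALR and PDIA6 at 0.88. The pairs with a negative r included PDIA3 with HSP90B1 (-0.42), CALR (-0.41) and PDIA6 (-0.23). Once each group's mean was subtracted, all 21 pairs were positive, with a median of 0.57, and PDIA3 with HSP90B1 was at 0.38. Over all libraries PDIA3 thus went against HSPA5, HSP90B1, CALR, CANX and PDIA6 but not against PDIA4 (r = 0.51). Within groups it followed all of them. Without anchored middle library 2, which was chosen for omission after its values were seen, 16 of 21 pairs were positive with a median of 0.54, and 21 of 21 within groups with a median of 0.66.

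ATF4 correlated negatively with 6 of the 7, at r = -0.79 with PDIA6 and with CALR, -0.76 with HSP90B1, -0.50 with HSPA5, -0.46 with CANX and -0.04 with PDIA4, and at 0.22 with PDIA3. With anchored middle library 2 left out these were -0.76 for PDIA6, -0.60 for CALR, -0.70 for HSP90B1, -0.64 for HSPA5, -0.53 for CANX, -0.60 for PDIA4 and -0.05 for PDIA3. Of the 21 pairs of a chaperone and a factor, 6 were positive, with a median r of -0.14, and within groups 2 were positive, with a median of -0.37. With that library left out, 9 were positive, with a median of -0.05, and within groups 1, with a median of -0.47. Of all 45 pairs, the one that changed most without that library was XBP1 with ATF4, at 0.65 with it and -0.02 without it. ATF4 and DDIT3 were at 0.26 over all libraries and 0.77 within groups, and at 0.06 and 0.77 without anchored middle library 2.

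**Figure D4:**
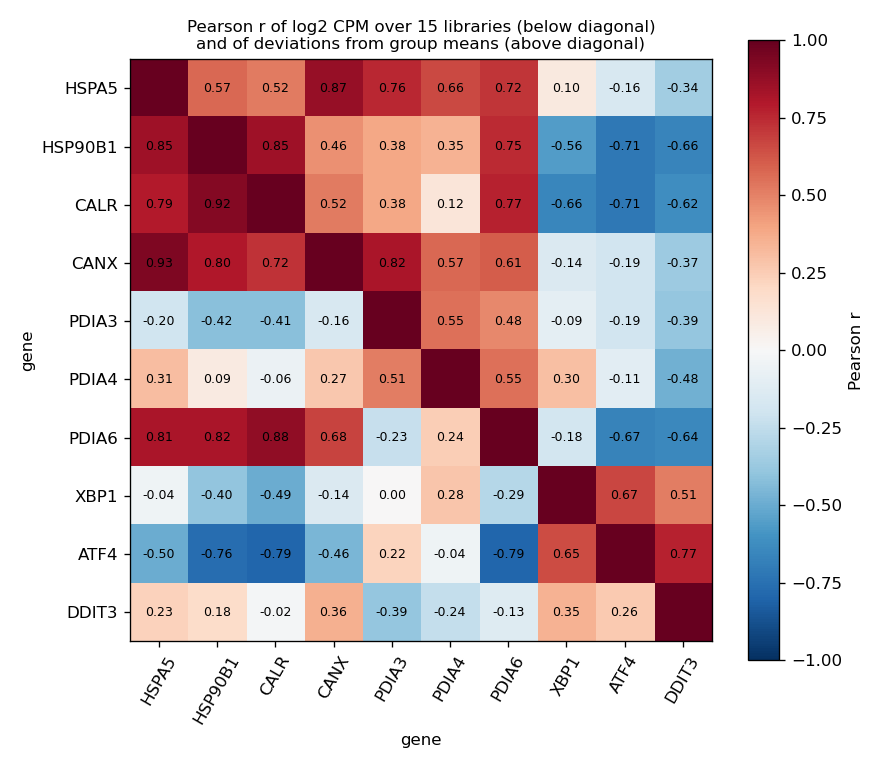
Pearson's r between the members over 15 libraries, of log2 CPM below the diagonal and of deviations from the group means above it, on a scale from -1 (blue) to 1 (red). The upper left block of chaperones is red above the diagonal for all 21 pairs, while the columns of ATF4 and DDIT3 are blue against all 7.

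Summed over the 7 chaperones and isomerases, the level was 3591 ± 305 CPM in anchored middle tissue, 3213 ± 85.3 in anchored post, 3300.1 ± 347 in unanchored middle and 3008 ± 263 in unanchored post, against 2689.9 ± 244 without a mold (SD, n = 3 each). The sums of unanchored middle library 3, at 2900 CPM, and unanchored post library 3, at 2704 CPM, fell within the no-mold range of 2446 to 2934 CPM, and the other 10 molded libraries lay above it.

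Among 7201 other genes with a symbol and a mean of at least 10 CPM, those most like HSPA5 over the 15 libraries were THBS4 (r = 0.97), LIMCH1 (0.93), ARNT (0.92), LAMA4 (0.92) and USP11 (0.91). Those most like ATF4 were LARP6 (0.95), GARS1 (0.94), NRN1 (0.93), GTPBP2 (0.92) and NT5E (0.92). Those most like DDIT3 were COMMD4 (0.93), GPNMB (0.93), PDPN (0.90), PLEKHO1 (0.89) and MINDY3 (0.89). Without anchored middle library 2 the values ran from 0.91 to 0.97 for the HSPA5 list, from 0.81 to 0.90 for the ATF4 list and from 0.88 to 0.93 for the DDIT3 list.

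The wider pathway was read from 12 lists of ER folding, quality control, stress signalling and export genes, with 168 distinct genes tested. The lists, too, were drawn up with earlier results known, so the shares below are descriptions. Of these, 21 were higher and 14 lower averaged over the molded groups, 20.8% called, beside 16% of all genes. The median log2 fold change over the 168 genes was -0.004, beside 0.0003 over all genes. The lists therefore held calls in both directions.

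Co-chaperones of HSPA5 were higher in molded tissue for 4 of 12 genes and lower for 0 (median 0.13). Over all genes 8.04% were higher and 7.91% lower. DNAJC10 was higher (log2 fold change 0.25, edgeR adjusted p = 0.0428) and was not followed through the alternative settings. Not called were DNAJB9 (-0.07), SDF2L1 (-0.26), SIL1 (-0.18) and CRELD1 (-0.15), which were negative. DNAJC3 (0.21), HYOU1 (0.31), CRELD2 (0.05) and MANF (0.04) were positive and not called either. The J-domain proteins DNAJC1, at 0.64 (adjusted p = 0.000394), and DNAJB11, at 0.41 (0.00256), hand unfolded chains to HSPA5, and SEC63, at 0.31 (0.0101), does so at the translocation channel. Of 14 other disulfide and oxidation genes, 2 were higher and 2 lower (median -0.17). ERO1A, the oxidase that supplies the isomerases with oxidizing power, fell by 0.77 (adjusted p = 0.00148): it averaged 35.2 ± 15.0 CPM in anchored middle tissue, 29.9 ± 6.07 in anchored post, 28.3 ± 3.25 in unanchored middle and 25.0 ± 1.31 in unanchored post, against 49.9 ± 4.90 without a mold. Anchored middle library 2, at 52.4 CPM, was the 1 molded library within the no-mold range of 45.5 to 55.2 CPM. ERP29 was lower by a log2 fold change of -0.31 (0.0222), and the isomerase TMX3 (0.35, 0.0250) and the quality control protein ERP44 (0.31, 0.00540) were higher. Of 12 glycoprotein cycle genes, 1 was lower, the ER lectin MLEC (-0.47, 0.0330), and 0 were higher.

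Genes of ER-associated degradation split as well, 3 higher and 1 lower of 16 (median 0.12). EDEM3, which trims mannose from misfolded glycoproteins, was higher by 0.47 (adjusted p = 0.00374), UBXN4 by 0.37 (0.00167) and ERLEC1 by 0.32 (0.0106). HERPUD1, a target of the unfolded protein response in many cell types, was lower, at 153.4 ± 4.68 CPM in anchored middle tissue, 149.4 ± 12.5 in anchored post, 149.8 ± 8.24 in unanchored middle and 157.9 ± 10.1 in unanchored post, against 198.7 ± 26.2 without a mold (log2 fold change -0.37, adjusted p = 0.00241). The molded libraries ran from 136.8 to 169.1 CPM and did not overlap the no-mold ones, at 178.0 to 228.3 CPM. Of 13 sensor and processing genes, 0 were higher and 1 was lower, MBTPS1, the protease that cuts ATF6 in the Golgi (-0.27, 0.0364). Of 8 genes of the other stress kinases and their eIF2 partners, 0 were called in either direction by edgeR or DESeq2, and 0 had an unadjusted p under 0.05.

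Among 26 targets of ATF4 and CHOP, 5 were lower and 2 higher (median -0.20), where 7.91% of all genes were lower and 8.04% higher. Of the named ones, TRIB3, a pseudokinase induced through ATF4 and CHOP, was 14.2 ± 4.05 CPM in anchored middle tissue, 14.4 ± 3.58 in anchored post, 14.8 ± 1.16 in unanchored middle and 17.9 ± 4.07 in unanchored post, against 23.5 ± 2.52 without a mold (log2 fold change -0.57, adjusted p = 0.0235). The serine synthesis enzyme PSPH (-0.60, 0.00183) and the apoptosis gene BBC3 (-0.60, 0.0342) were lower too. Also lower were ASNS (-0.27, 0.0331) and ATF5 (-0.34, 0.0339), which were not followed through the alternative settings. PSPH kept its call in all of those settings. TRIB3 and BBC3 lost theirs with library totals and without no-mold library 1 or 3. The stress-induced NUPR1 (0.54, 0.00132) and the tRNA synthetase EPRS1 (0.47, 0.00236) were higher. The list holds targets of either factor, with many amino acid and tRNA synthetase genes, and was not split by factor.

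Of 17 translocon and signal peptide genes, 3 were higher and 1 lower (median 0.07). SEC62, a channel subunit that also serves removal of excess ER, had the smallest adjusted p of all lists (log2 fold change 0.74, adjusted p = 1.23e-05), at 217.0 ± 14.7 CPM in anchored middle tissue, 176.8 ± 19.2 in anchored post, 218.5 ± 11.7 in unanchored middle and 178.8 ± 26.3 in unanchored post, against 117.5 ± 5.99 without a mold. SRP54 (0.36, 0.0113) and TRAM1 (0.30, 0.0176) were higher, and SSR4 was lower (-0.33, 0.0132). Of 16 genes of KDEL retrieval and ER export, MIA2 was higher (0.58, 0.00346) and KDELR1, a receptor that returns escaped chaperones to the ER, was lower (-0.35, 0.00377). Of 9 collagen-dedicated folding genes, the prolyl isomerase FKBP7 was higher (0.50, 0.00127) and FKBP10 lower (-0.29, 0.0450). Of 11 genes listed under ER calcium, HSPA13, an HSP70 relative of microsomes and not a calcium pump or buffer, was higher (0.28, 0.0387).

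**Figure D5:**
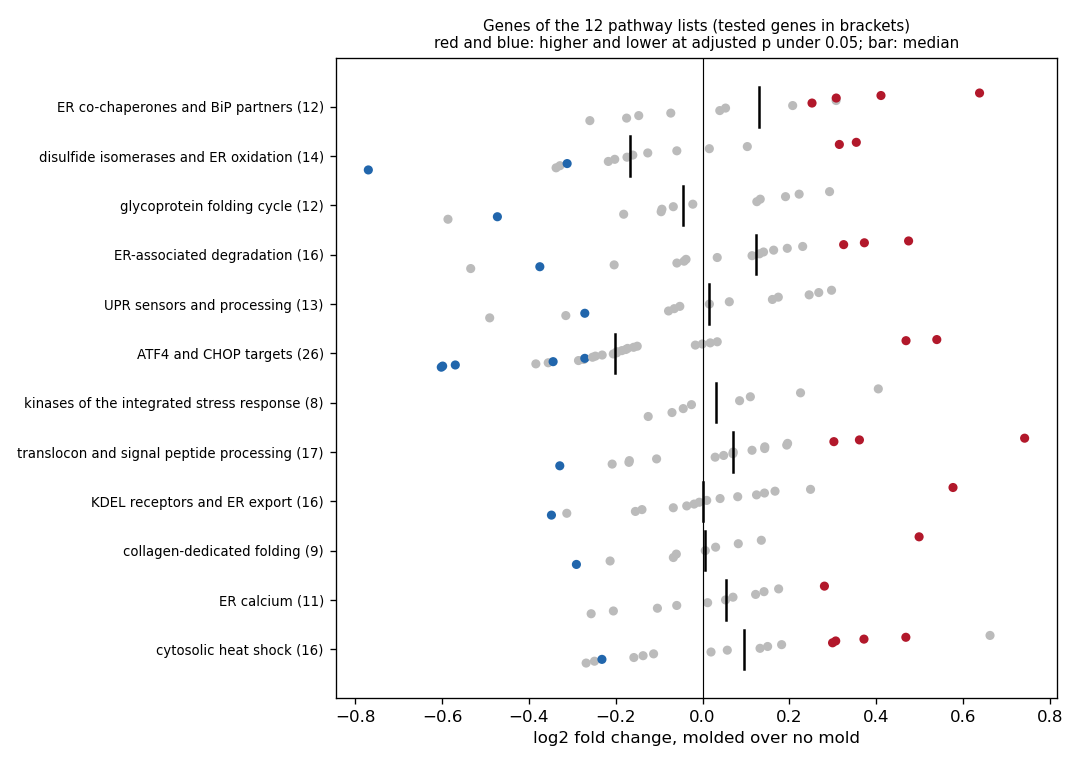
Log2 fold change, molded over no mold (horizontal axis), of every tested gene of the 12 pathway lists (rows, number tested in brackets). Red and blue points passed an adjusted p of 0.05 as higher and lower, grey points did not, and the bar is the list's median. ERO1A at -0.77 and SEC62 at 0.74 are the ends of the range, and the bar of the ATF4 and CHOP list, at -0.20, is the lowest.

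Of the 31 pathway genes named for this comparison, cytosolic heat shock genes included, ERO1A, PSPH, NUPR1 and SEC62 were called in all 23 alternatives. The other 27 lost their call without the 3 shallowest libraries (adjusted p 0.0814 to 0.778). Leaving out no-mold library 3 ended 15 of the 31 calls, among them HERPUD1 (0.0681), KDELR1 (0.0555), SEC63 (0.0896), TRAM1 (0.224) and TRIB3 (0.137), with adjusted p up to 0.279. Leaving out no-mold library 1 ended 13, among them MLEC (0.421), ERLEC1 (0.0604), TRIB3 (0.0897) and ERP29 (0.113), and leaving out no-mold library 2 ended 5, among them BBC3 (0.149) and MBTPS1 (0.140). FKBP10, HSPA13, HSPA1L and MBTPS1 also failed without 1 or more of the molded libraries (adjusted p up to 0.0720), and HSPA1L lost its call in 15 alternatives, 12 of them single libraries. With scaling by library totals, 5 pathway genes were lower instead of 14.

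Between regions, 9 of the 168 pathway genes were higher and 12 lower in the post regions, 12.5% called beside 8.51% of all genes. Lower genes included folding and entry genes of the ER: P4HB, the most widely known isomerase and a subunit of collagen prolyl hydroxylase, was 746.6 ± 37.9 CPM in anchored post against 1003.4 ± 233 in anchored middle, and 677.3 ± 52.2 in unanchored post against 902.6 ± 131 in unanchored middle (log2 fold change -0.42, adjusted p = 0.00668). The post libraries, at up to 772.2 CPM, did not overlap the middle ones, at 783.8 CPM or more. The oligosaccharyltransferase subunit DDOST (-0.29, 0.00662), the glucosyltransferase UGGT2 (-0.36, 0.0145) and the glucosidase MOGS (-0.35, 0.0492) made 3 of 12 glycoprotein cycle genes lower. NUPR1 (-0.56, 0.000287), EDEM3 (-0.34, 0.00792), SYVN1 (-0.37, 0.0266), SEC61A1 (-0.35, 0.0194), SEC62 (-0.29, 0.0179), RCN3 (-0.40, 0.0125), EIF2AK1 (-0.46, 0.0158) and SLC38A2 (-0.23, 0.0272) were lower as well. Higher in the post regions were the amino acid genes PSPH (0.47, 0.00826), MTHFD2 (0.36, 0.0482) and CTH (0.49, 0.0133) and the HSPA5 cofactor MANF (0.24, 0.0269). DERL2 (0.23, 0.0242), EIF2S1 (0.24, 0.0404), SRP14 (0.39, 0.00223), SAR1B (0.38, 0.0288) and the mitochondrial chaperonin HSPD1 (0.30, 0.00205) were higher too. Values that are not whole held 47.9% of the counts of P4HB, 57.1% of DDOST and 49.4% of CTH, so these may include reads of other gene rows. Within anchored tissue NUPR1 (-0.67, 0.00413) and EDEM3 (-0.43, 0.0458) were lower in the post region, and within unanchored tissue 0 of the 168 passed by edgeR, where 28 had an unadjusted p under 0.05 and 5 passed by DESeq2. Between anchored and unanchored tissue 0 of the 168 passed by edgeR or DESeq2, with 1 at an unadjusted p under 0.05 in the middle, 7 in the post region and 15 in the average.

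Of the 21 calls between regions, those of P4HB, UGGT2, DDOST, EDEM3, PSPH, NUPR1, CTH, SRP14, RCN3 and the mitochondrial chaperonin HSPD1 held in all 23 alternatives. The other 11 each failed without at least 1 library. MOGS and MTHFD2 failed in 16 alternatives each, EIF2S1 in 13, SLC38A2 in 7, DERL2 and SAR1B in 6, MANF in 5, SYVN1 in 4, SEC61A1 and SEC62 in 3 and EIF2AK1 in 1. Unanchored middle library 2 ended 9 of them when left out, unanchored post library 3 ended 8, and anchored middle library 3 and anchored post library 3 ended 7 each (adjusted p up to 0.162). In anchored tissue alone, EDEM3 failed in 14 alternatives (adjusted p up to 0.182) and NUPR1 without anchored post library 3 (0.0554).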

How the data were processed

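The authors deposited, per the file headers, expected counts and CPM for each of 15 libraries. The deposited CPM equals the count divided by the library's total (largest difference 5.1e-11). Per the labels' protocols, RNA was captured by oligo-dT primers carrying a sample barcode and a molecular identifier, and cDNA was tagmented. STAR 2.7, SAMtools 1.21, featureCounts of Subread 2.1.1 and MultiQC 1.33 were used, per the submitters' processing notes. Not given in the sources used here are the genome build, the annotation, the use of strand and any collapsing by molecular identifier, without which PCR copies would be counted.

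From 13.5% to 16.3% of a library's nonzero values are not whole (tolerance 1e-06), and expected counts were rounded before testing. The 92 ERCC spike-in rows (18 to 70 counts per library) were left out. filterByExpr of edgeR 4.0.16 (R 4.3.3; a count of 10, a total of 15) kept 11834 genes, TMM factors were 0.934 to 1.049, and 1 quasi-likelihood model was fitted to all libraries with a mean per group. The 12 comparisons were two-sided contrasts adjusted by Benjamini-Hochberg over all genes, with a threshold of 0.05. Alternatives, including DESeq2 1.42.0, are given at the end. The procedure was tested on simulated data.

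The 10 genes and the 12 lists were chosen with earlier results of these data known. Named pathway genes are, per list and comparison, up to 3 rises and 3 falls of largest size past the threshold with a group mean of at least 10 CPM. Of 178 list entries 174 matched a symbol. No sequences were used. No library repeated another: within a group, pairs had a chi-square of 2.91 to 13.7 per degree of freedom.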

Additional observations from a re-analysis of the deposited data

How the results depend on the processing

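In 23 alternatives (RLE scaling, library totals, no filter, unrounded counts, a replicate block, the compared groups alone, DESeq2, each library left out, the 3 shallowest left out), 0 of the 18 member results called and 0 of the 55 pathway gene results called reversed, and 0 of the 18 and 14 of the 55 kept their call in all. The number of members called, molded against no mold, was 5, with 2 to 6 when 1 library was left out and 1 without the 3 shallowest. Against no mold it was 5 in anchored middle (6 by DESeq2, 3 with the compared groups alone, 2 to 5 with 1 library left out, 1 without the 3 shallowest), 1 in anchored post (2 with library totals or no filter, 0 to 2, and 0 without the shallowest), 5 in unanchored middle (6 by DESeq2, 1 to 6, and 1) and 1 in unanchored post (2 with library totals, no filter, the replicate block, the compared groups alone or DESeq2, and 0 to 2). Between regions it was 1 (3 with no filter, 2 by DESeq2, 0 with the compared groups alone or without the shallowest, 0 to 2 with 1 left out). Pathway genes higher in molded tissue were 21 (2 without the shallowest, 13 to 24 with 1 left out) and lower 14 (5 with library totals, 2 without the shallowest, 3 to 21); between regions the higher ones were 9 (4 to 10). The cause of these changes was not tested. Results near 0 changed sign: PDIA4, molded against no mold, was 0.0602 with library totals and 0.0392 with no filter (-0.0515 to 0.0915 with 1 left out). XBP1 was 0.0625 with library totals, 0.0421 with no filter and 0.0710 without the shallowest (-0.0333 to 0.0173 with 1 left out). Between regions XBP1 was -0.0356 without the shallowest (-0.0359 to 0.0343). For anchoring, CANX was -0.00862 with library totals (-0.0213 to 0.0346), XBP1 was 0.0112 without the shallowest (-0.0597 to 0.0104), and PDIA3 (-0.0630 to 0.0849) and PDIA4 (-0.0198 to 0.0670) changed sign with 1 library left out. The labels do not say that a replicate number marks 1 tissue. Over the 30 pairs of same-numbered libraries of different groups, deviations from the group means correlated at -0.17 to 0.26, 6 of them over 0.1, and with the replicate block 5 members were called for molded tissue. Between the post and middle libraries of 1 mold type, same-numbered pairs were at -0.03 to 0.14 in anchored and 0.09 to 0.26 in unanchored tissue, 1 and 2 of the 3 over 0.1, and differently numbered pairs at -0.16 to 0.06 and -0.17 to 0.06. Pairing is thus hinted at and not shown. A replicate block within mold type, added to these after the data were seen, called 3 members between regions, CALR (adjusted p = 0.00975), PDIA3 (0.00276) and HSP90B1 (0.0374), and 1 within anchored tissue, PDIA3 (log2 fold change 0.32, adjusted p = 0.0371). In same-numbered pairs the post library was lower in 6 of 6 for CALR, HSP90B1 and HSPA5 and higher in 6 of 6 for PDIA3. Over all genes it called 1371 between regions, 1000 of them among the 1007 called without it, 458 instead of 227 in anchored and 255 instead of 53 in unanchored tissue. Over all genes, the 1888 calls for molded against no mold became 335 without the 3 shallowest libraries and 856 to 2297 with 1 left out. In the region comparison the 1007 calls became 465 without unanchored middle library 2. For anchoring, no filter gave 28, 21 and 66 genes in the middle, in the post region and in the average, 0 of them members, against 0 with the filter.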

Other observations

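Outside the ER, 16 cytosolic and mitochondrial heat shock genes were tested, and they are part of the 168 pathway genes above. In molded tissue 4 were higher and 1 lower (median log2 fold change 0.09), beside 16% of all genes called. DNAJA1 was among the higher ones (0.30, edgeR adjusted p = 0.0257) and was not followed through the alternative settings. HSPB1 (-0.25, edgeR adjusted p = 0.0787) and CRYAB (-0.27, 0.0649) were not called over the molded groups. In unanchored post both were called as lower (-0.48, 0.0136 and -0.47, 0.0182), while DNAJA1, HSPD1 and HSPA4 were higher there. HSPA4, a nucleotide exchange factor of cytosolic HSP70, averaged 109.4 ± 2.702 CPM in anchored middle tissue, 111.6 ± 10.4 in anchored post, 107.9 ± 3.35 in unanchored middle and 109.9 ± 10.5 in unanchored post, against 78.6 ± 7.19 CPM without a mold (SD, n = 3 each; log2 fold change 0.47, edgeR adjusted p = 0.000766). The mitochondrial chaperonin HSPD1 (0.31, 0.00541) and its partner HSPE1 (0.37, 0.0115) were higher as well, and the HSP70 gene HSPA1L was lower (-0.23, 0.0410). Without the 3 shallowest libraries these 4 calls were lost, and that of HSPE1 also without no-mold library 1 (0.115). The call of HSPA1L was lost in 15 of 23 alternatives, among them each of the 3 no-mold libraries (0.0605, 0.0917 and 0.279 without libraries 1, 2 and 3), 9 molded libraries left out 1 at a time (0.0533 to 0.0701), library totals (0.146) and no filter (0.256). Values that are not whole held 68.5% of the counts of HSPA4, 79.5% of HSPD1, 55.1% of HSPE1 and 24.04% of HSPA1L, so reads shared with other gene rows could sit in them.

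Between regions HSPD1 averaged 115.4 ± 2.94 CPM in anchored post against 92.7 ± 3.12 in anchored middle, and 117.3 ± 0.730 in unanchored post against 95.6 ± 0.632 in unanchored middle (log2 fold change 0.30, adjusted p = 0.00205), and its call held in all 23 alternatives. Within anchored tissue it was 0.31 (adjusted p = 0.0496) and was lost in 21 of 23 alternatives. Leaving out any 1 of the 15 libraries ended that call, with adjusted p up to 0.166.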
